A study of Mus musculus with 6 samples.

Results

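Genes of the urea cycle and of amino acid catabolism were examined in the livers of mice lacking the lysosomal lysolipid transporter SPNS1. The set held 42 genes of the 54532 in the deposited count table, taken by gene name, in 9 pathways. They were the urea cycle with its carriers (8 genes), tyrosine (5), tryptophan (5), histidine (4), methionine and cysteine (6), serine, alanine, aspartate and glyoxylate (4), glutamine and proline (4), branched chain amino acids (4), and sarcosine and dimethylglycine (2). All 42 passed the filter on low counts and were tested.

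RNA-Seq libraries came from whole liver of 3 g*Spns1*-cKO and 3 control mice, 1 library per mouse. The g*Spns1*-cKO mice were *Spns1* fl/fl mice that carried Rosa26Cre-ERT2, a Cre recombinase active throughout the body after tamoxifen, which was injected at 50 mg/kg on postnatal days 11, 13 and 15 to remove exon 3. The study's methods use *Spns1* fl/fl littermates as controls, whereas the labels give the control genotype as wild type, and the sources used here state neither tamoxifen treatment of the controls nor the age and sex of the sequenced mice. A lasting effect of tamoxifen or of Cre therefore cannot be told apart from that of the deletion.

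The liver is the main site of amino acid breakdown. Transaminases and deaminases take nitrogen from amino acids, the urea cycle fixes it as urea in steps divided between mitochondrion and cytosol, and the carbon skeletons enter glucose, ketone body or energy metabolism. Methionine is turned into S-adenosylmethionine, the methyl donor of the cell, and liver disposes of surplus methyl groups through glycine, sarcosine and dimethylglycine. Most of these enzymes are abundant in hepatocytes and scarce in other cells of the liver.

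Libraries held between 30350002 and 35295611 counts. The TMM factors (trimmed mean of M values, which scales libraries so that the bulk of genes is centred on no change) lay between 0.834 and 0.873 in controls, against 1.16 to 1.18 after the deletion, so the groups differed in composition as well as in single genes. *Spns1* itself was counted 1008, 1562 and 875 times in controls and 642, 1175 and 698 times in g*Spns1*-cKO livers (log2 fold change -0.87, SE 0.255, edgeR adjusted p = 0.0300), and the difference missed the threshold with library size alone (-0.43, adjusted p = 0.213). Counts per gene do not show exon 3 by itself. All 15 hepatocyte markers were detected, with *Alb* among them, as the liver label requires, and their summed level was 145100 to 149200 CPM (a count scaled to the size of the TMM-adjusted library) in controls and 84500 to 97840 CPM in g*Spns1*-cKO livers. Of these 15, 9 were called lower and 0 higher, and the middle log2 fold change among them was -0.69. Of the zonal markers 4 of 8 periportal genes were called lower and 1 higher (summed 5929 to 8034 CPM in controls and 3005 to 3652 CPM in g*Spns1*-cKO livers), and 4 of 10 pericentral genes lower and 0 higher (10150 to 12840 against 6186 to 8890 CPM), all on the TMM scale. With library size alone these counts were 3 lower and 4 higher for periportal genes and 0 lower and 1 higher for pericentral genes, and the medians turned from -0.27 to 0.17 and from -0.19 to 0.25.

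Most genes of amino acid catabolism were lower in g*Spns1*-cKO livers on the TMM scale. Of the 42 genes, 25 were called lower (59.5%) and 0 higher at an edgeR adjusted p under 0.05, while 20.5% of all 15449 genes tested were called lower and 21.3% higher. At an unadjusted p under 0.05, 29 were lower and 0 higher, and DESeq2 called 1 gene higher (*Cps1*) and limma-voom 0. The median log2 fold change was -0.57 over the 42 genes and 0.01 over all genes tested, and 37 of the 42 had a negative value. Abundant genes in general were lower in these livers. Of the 4582 genes with at least the mean level of the weakest member (28.3 CPM), 39.9% were called lower. The 4540 of these outside the set had a median of -0.23. Beside that share, 3 of 8 urea cycle genes called lower do not stand out. Nor do 2 of 4 each for histidine, for branched chain amino acids, and for serine, alanine, aspartate and glyoxylate.

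The 3 g*Spns1*-cKO livers lay below all 3 controls in 30 of the 42 genes, against 26.9% of all genes tested, and above them in 1, *Cps1*, against 27.1%. Those 30 were the 25 called genes and 5 others, *Hpd*, *Amdhd1*, *Ftcd*, *Bhmt* and *Prodh*. The remaining 11 genes overlapped between groups. Reductions were mostly modest: only *Kmo*, *Gnmt* and *Cbs* were called with a change of at least 2-fold, against 5.29% of all genes. The spread on the log2 scale was larger in g*Spns1*-cKO livers in 33 of the 42 genes, with a median SD of 0.235 against 0.155 in controls. The same share over all genes tested was not taken. Because these genes were measured in the same libraries, the larger spread is not read as a trait of the set.

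**Figure D1:**
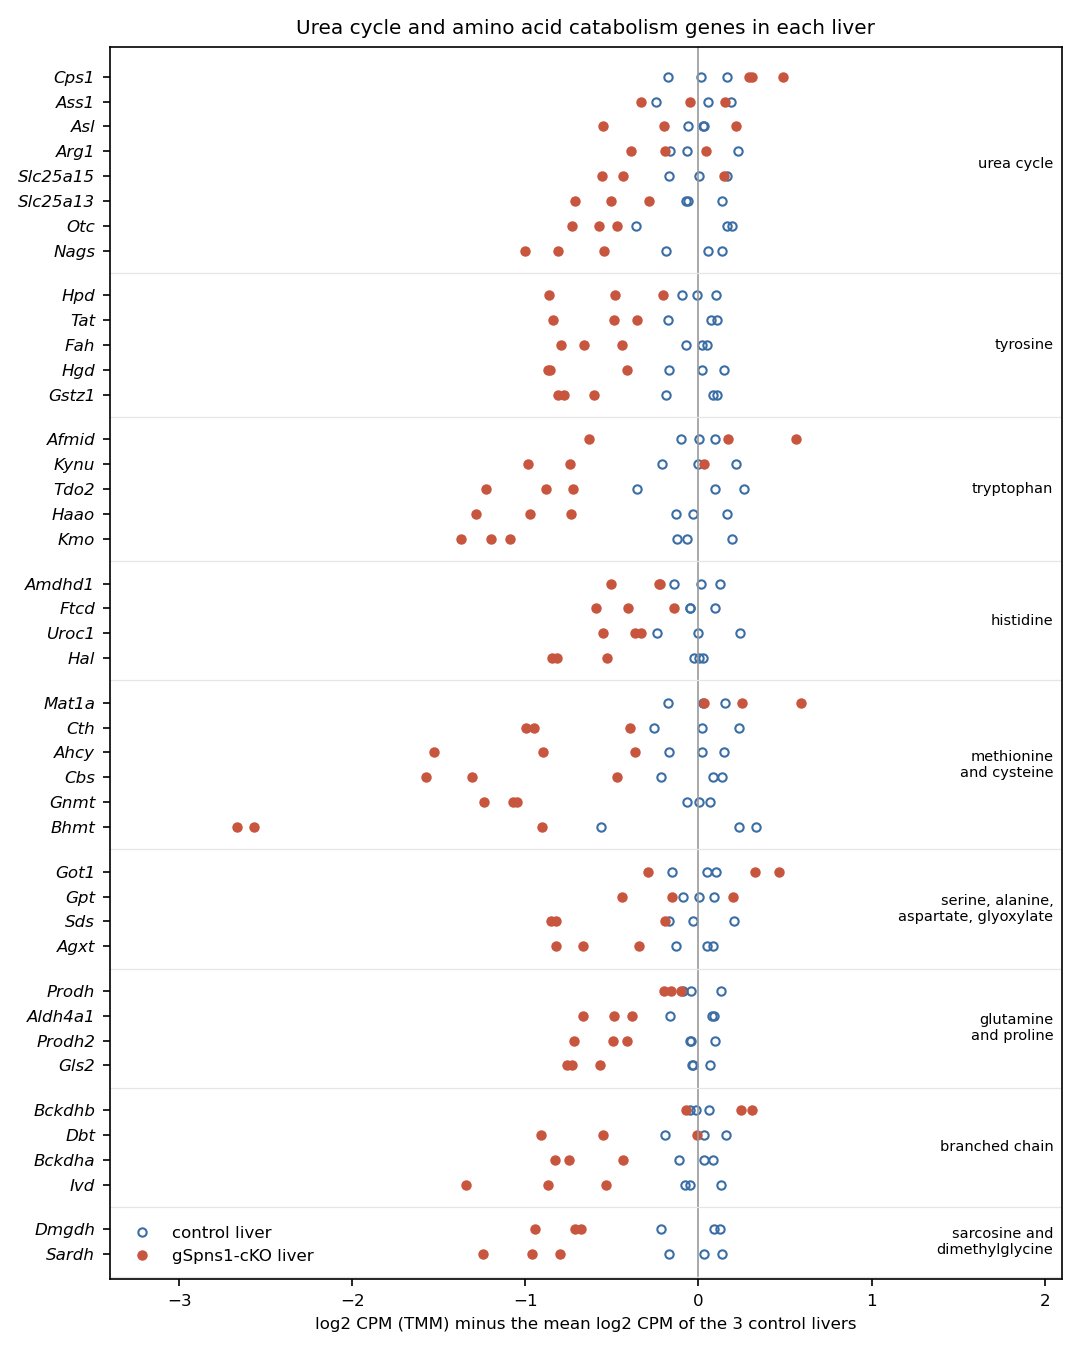
Level of each of the 42 genes in each liver, as log2 CPM with TMM scaling minus the mean of the 3 control livers (horizontal axis), by pathway; open circles are control and filled circles g*Spns1*-cKO livers. The g*Spns1*-cKO livers lie below all controls in 30 genes and above them only in *Cps1*.

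The direction of these changes rested on how libraries were scaled. As a share of all counts the 42 genes together made up 3.03%, 2.66% and 2.97% in controls and 2.88%, 3.30% and 2.71% in g*Spns1*-cKO livers, ranges that overlap, whereas on the TMM scale their sum was 30510 to 35620 CPM in controls and 23280 to 28090 CPM in g*Spns1*-cKO livers. With library size alone, 5 genes were called lower (6.28% of all genes) and 4 higher (47.2% of all genes), and the median was -0.13 while that of all genes moved to 0.46. With libraries scaled to the geometric mean of the 15 hepatocyte markers, 3 were called lower (4.12% of all genes) and 8 higher (55.6%), with a median of 0.02 against 0.60 over all genes. Scaling to the 42 genes themselves, an alternative added after seeing the data, gave 3 lower (4.36% of all genes) and 8 higher (52.4%). It centres the set on no change by construction, so its split of signs carries no information on the direction of the set. Upper-quartile scaling gave 20 lower (14.5% of all genes) and 1 higher (26.6%), with a median of -0.45 against 0.14, and the size factors of DESeq2 gave 25 lower and 0 higher. The hepatocyte markers had medians of -0.69, -0.25 and -0.10 under TMM, library size and hepatocyte marker scaling. A change of scaling shifts all genes alike, and the last value is held near no change by construction. In bulk tissue, fewer hepatocytes and less of these RNAs per hepatocyte cannot be told apart.

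*Kmo*, *Gnmt* and *Sardh* were called lower under all 5 scalings, and 20 of the 42 had a negative value under all of them. *Tdo2* and *Haao* were also called lower with library size alone, under which 6 of the 9 pathways held no gene called lower. At the other end, *Cps1*, *Mat1a*, *Got1*, *Bckdhb* and *Afmid* had a positive value under all 5, and the first 4 of these were called higher with library size alone and with hepatocyte marker scaling, while with TMM they missed the threshold. The 8 genes called higher with hepatocyte marker scaling were those 5 with *Ass1*, *Gpt* and *Prodh*. Of the 42 genes, 9 were called under none of the 5 scalings.

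**Figure D2:**
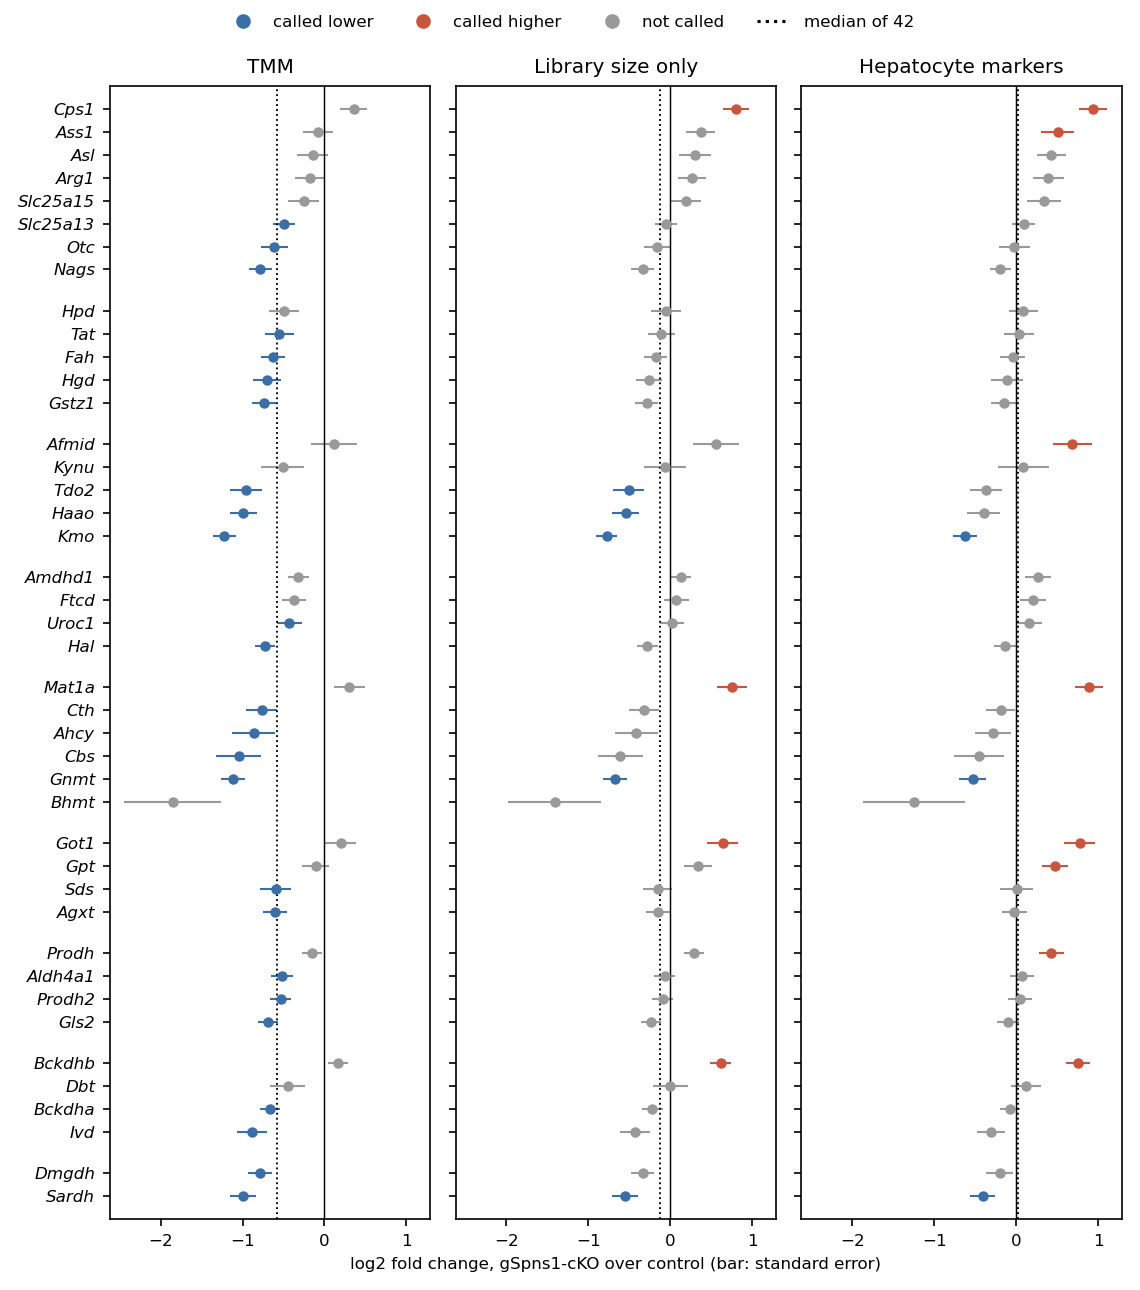
The log2 fold change of each gene with its standard error (horizontal axis) under TMM, library size and hepatocyte marker scaling, in the gene order of the plot of single livers; blue marks genes called lower, red genes called higher, and the dotted line the median of the 42. The median moves from -0.57 to -0.13 and 0.02, since a change of scaling shifts all genes of a library alike.

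RNA of other liver cell types was higher in the g*Spns1*-cKO livers. Macrophage markers were called higher in 10 of 10 genes, with a summed level of 149 to 222 CPM in controls and 541 to 742 CPM in g*Spns1*-cKO livers, and none was at 0. Cholangiocyte markers were called higher in 6 of 6 (44.2 to 62.9 against 172 to 280 CPM), with *Cldn4* at 0 in 2 libraries. Most of that sum was *Spp1* (mean 44.6 CPM in controls and 195 CPM in g*Spns1*-cKO livers). The next, *Sox9*, had means of 3.77 and 11.7 CPM, so the sum says little of the other markers. Stellate cell markers were called higher in 6 of 8 (192 to 221 against 511 to 557 CPM) and endothelial markers in 5 of 6 (137 to 153 against 202 to 249 CPM), with none at 0. Lymphocyte markers (6.85 to 8.38 against 19.9 to 23.0 CPM, 2 of 6 called higher) and neutrophil markers (1.85 to 3.64 against 5.45 to 10.2 CPM, 3 of 3 tested) were scarce, and the neutrophil gene *Ly6g* was at 0 in 5 libraries and *Mpo* in 1. All of these sums stayed far below those of the hepatocyte markers, and their part in the lower levels of the amino acid genes was not tested.

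**Figure D3:**
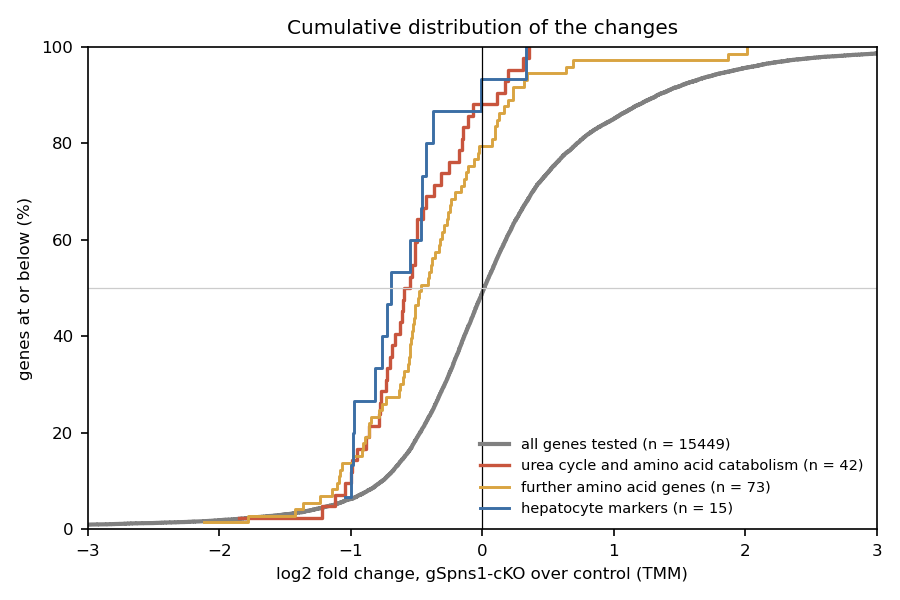
Cumulative share of genes (vertical axis, percent) at or below a given log2 fold change under TMM (horizontal axis) for all genes tested, the 42 genes, 73 further amino acid genes and 15 hepatocyte markers. The curve of the 42 genes runs beside that of the hepatocyte markers, with medians of -0.57 and -0.69, and left of all genes.

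The urea cycle was the least reduced of the 9 pathways by its median. Its summed level was 7761 to 9817 CPM in controls and 8093 to 9671 CPM in g*Spns1*-cKO livers, a ratio of means of 1.01 (two-sided exact permutation p = 0.8, the smallest possible being 0.1). The same test gave 0.4 for serine, alanine, aspartate and glyoxylate and 0.1 for each other pathway. The sum follows its most abundant genes: *Cps1* went from a mean of 2833 to 3633 CPM, while 7 of the 8 genes had a negative value under TMM. An equal sum is therefore not an unchanged pathway. The median log2 fold change of the 8 genes was -0.22. Called lower were *Nags*, *Otc* (-0.61) and *Slc25a13* (-0.49), and none was called higher; the call of *Otc* was lost without control 3 (-0.54, adjusted p = 0.0599), and that of *Slc25a13* without control 3 (-0.44, adjusted p = 0.0671) or g*Spns1*-cKO 3 (-0.49, adjusted p = 0.0588). *Otc* makes citrulline, and *Slc25a13* encodes the mitochondrial carrier that supplies aspartate to the cytosol.

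*Nags* makes N-acetylglutamate, the obligate activator of carbamoyl phosphate synthetase. It had 1911, 2612 and 2029 counts in controls and 1583, 2031 and 1519 in g*Spns1*-cKO livers. This was 77.7 ± 8.705 CPM (SD, n = 3) against 45.2 ± 7.22 CPM, with a log2 fold change of -0.78 (SE 0.137, edgeR adjusted p = 0.00143). Its groups did not overlap on the CPM scale, but the value was -0.34 (adjusted p = 0.0620) with library size alone and -0.19 (adjusted p = 0.218) with hepatocyte marker scaling.

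*Cps1*, the carbamoyl phosphate synthetase that commits ammonia to the cycle, went the other way. Its counts were 88902, 76749 and 72004 in controls and 125589, 151727 and 135763 in g*Spns1*-cKO livers, and every g*Spns1*-cKO liver stood above every control also after scaling, at 3491, 3954 and 3454 CPM against 3162, 2492 and 2845 CPM. The log2 fold change was 0.36 (SE 0.163, edgeR adjusted p = 0.100), which missed the threshold under TMM, and 0.80 (adjusted p = 0.00208) with library size alone. DESeq2 called it higher. *Cps1* thus gained on *Otc*, the next enzyme, with a ratio of levels per length of 5.12, 5.93 and 4.70 in controls and 9.62, 12.2 and 8.88 in g*Spns1*-cKO livers (two-sided exact permutation p = 0.1, the smallest possible); this pair was chosen after its values were seen.

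The cytosolic enzymes of the cycle missed the threshold. *Ass1*, which makes argininosuccinate, had 86665, 70154 and 70976 counts in controls and 107935, 100029 and 84513 in g*Spns1*-cKO livers (log2 fold change -0.07, SE 0.185, adjusted p = 0.776). *Asl*, which splits it, had 20952, 23107 and 17794 counts against 17978, 32728 and 25051 (log2 fold change -0.14, SE 0.189, adjusted p = 0.570). *Arg1*, which releases urea, had 48488, 40335 and 35529 counts against 46149, 58023 and 44084 (log2 fold change -0.18, SE 0.173, adjusted p = 0.430). The CPM of all of them overlapped between groups, and their signs turned positive with library size alone (0.37, 0.30 and 0.26) and with hepatocyte marker scaling (0.51, 0.43 and 0.39).

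*Slc25a15*, the ornithine carrier of the inner mitochondrial membrane, had 9354, 9086 and 9414 counts in controls and 13232, 9412 and 8850 in g*Spns1*-cKO livers. Its log2 fold change was -0.25 (SE 0.189, adjusted p = 0.308). On the CPM scale g*Spns1*-cKO 1 (368) stood with the controls (295 to 372), and without it the value was -0.51 (adjusted p = 0.0147).

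Of the tyrosine pathway 4 of 5 genes were called lower under TMM, beside 39.9% of the abundant genes, with a median log2 fold change of -0.62. These were *Gstz1*, *Hgd* (-0.70), *Fah* (-0.62) and *Tat* (-0.55), that is, steps from transamination of tyrosine to the last cleavage into fumarate and acetoacetate. *Gstz1*, the maleylacetoacetate isomerase, had 24913, 22244 and 22064 counts in controls and 16852, 20826 and 18856 in g*Spns1*-cKO livers, or 827 ± 90.7 CPM (SD, n = 3) against 497 ± 40.1 CPM, a log2 fold change of -0.73 (SE 0.146, edgeR adjusted p = 0.00288). The call of *Tat* was lost without control 1 (-0.53, adjusted p = 0.0545), control 3 (-0.51, adjusted p = 0.0922) or g*Spns1*-cKO 3 (-0.43, adjusted p = 0.134). With library size alone no gene of the pathway was called, and the median was -0.18. With hepatocyte marker scaling no gene was called either, and the median was -0.04.

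*Hpd*, which makes homogentisate, narrowly missed the threshold. Its counts were 65304, 67347 and 63337 in controls and 46140, 77656 and 65663 in g*Spns1*-cKO livers (log2 fold change -0.49, SE 0.186, adjusted p = 0.0540), and the groups did not overlap after scaling. Without g*Spns1*-cKO 2, the highest of its group, it was called (-0.66, adjusted p = 0.0197).

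Tryptophan breakdown along the kynurenine pathway was among the most reduced parts of the set, with a median log2 fold change of -0.95 and a summed level of 1977 to 2565 CPM in controls and 1080 to 1349 CPM in g*Spns1*-cKO livers. Called lower were *Kmo*, *Haao* (-0.99) and *Tdo2* (-0.95), and the other 2 missed the threshold. *Tdo2* opens the indole ring of tryptophan, *Kmo* hydroxylates kynurenine on the outer mitochondrial membrane, and *Haao* acts further along, on 3-hydroxyanthranilate.

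*Kmo* had 8108, 9260 and 9099 counts in controls and 5317, 5271 and 4777 in g*Spns1*-cKO livers. Scaled, this was 316 ± 38.0 CPM (SD, n = 3) against 136 ± 13.2 CPM, with a log2 fold change of -1.22 (SE 0.137, edgeR adjusted p = 0.000107). The groups lay far apart, raw counts included, and the gene was lower also with library size alone (-0.78, adjusted p = 0.000687) and hepatocyte marker scaling (-0.62, adjusted p = 0.00301).

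*Kynu*, kynureninase, had 4846, 3953 and 3749 counts in controls and 5455, 2880 and 3491 in g*Spns1*-cKO livers (log2 fold change -0.51, SE 0.263, adjusted p = 0.163). On the CPM scale g*Spns1*-cKO 1 (152) lay within the control range (128 to 172), and without it the value was -0.87 (adjusted p = 0.00102). *Afmid*, the formamidase that follows *Tdo2* and the weakest of the 42 genes, had 765, 780 and 735 counts in controls and 629, 1542 and 1202 in g*Spns1*-cKO livers (log2 fold change 0.11, SE 0.280, adjusted p = 0.775). Its g*Spns1*-cKO livers lay on both sides of the controls: the value was 0.38 (adjusted p = 0.0462) without g*Spns1*-cKO 1 and -0.18 (adjusted p = 0.563) without g*Spns1*-cKO 2. *Afmid* shares 83 exon bases with *Tk1* on the other strand (5653 and 5575 counts in all libraries), and whether counting used strand is not given in the sources used here. It also shares 1566 exon bases on the same strand with *Gm20708*, which had 0 counts in all libraries. Whether reads of these bases were left out of the count of *Afmid*, and so lowered its level, was not tested.

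Of the histidine pathway 2 of 4 genes were called lower, *Hal* and *Uroc1* (-0.43), the first steps from histidine. The median log2 fold change was -0.40 and all 4 had groups that did not overlap. *Hal*, histidine ammonia-lyase, had 7441, 8423 and 6812 counts in controls and 5381, 7162 and 5998 in g*Spns1*-cKO livers, or 269 ± 4.44 CPM (SD, n = 3) against 163 ± 20.6 CPM, a log2 fold change of -0.72 (SE 0.127, edgeR adjusted p = 0.00138). *Uroc1* stood close to the threshold (adjusted p = 0.0412) and was called in only 1 of the 6 fits that left out a library, with adjusted p between 0.0259 and 0.162. Its value turned to 0.02 (adjusted p = 0.907) with library size alone and to 0.16 with hepatocyte marker scaling. With library size alone no gene of the pathway was called, and the median was 0.05.

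*Amdhd1*, the imidazolonepropionase, had 6528, 5934 and 5448 counts in controls and 6551, 6973 and 5888 in g*Spns1*-cKO livers (log2 fold change -0.32, SE 0.130, adjusted p = 0.0722). *Ftcd*, which passes the formimino group to folate, had 13565, 13426 and 11033 counts against 10786, 15704 and 13344 (log2 fold change -0.37, SE 0.147, adjusted p = 0.0659). Without g*Spns1*-cKO 2 *Ftcd* was called (-0.50, adjusted p = 0.0238). The raw counts of both genes overlapped between groups and their signs turned positive with library size alone (0.13 and 0.08).

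Methionine and cysteine metabolism held the widest range of changes. Called lower under TMM were *Gnmt*, *Cbs* (-1.05), *Ahcy* (-0.86) and *Cth* (-0.77), 4 of 6 genes, beside 39.9% of the abundant genes. The median log2 fold change was -0.95. With library size alone 1 was called lower and 1 higher, and the median was -0.51. *Ahcy* removes S-adenosylhomocysteine, and *Cbs* and *Cth* turn homocysteine into cysteine. The summed level was 8732 to 10440 CPM in controls and 5739 to 7275 CPM in g*Spns1*-cKO livers. The calls of *Cbs* and *Ahcy* were each lost in 3 of the 6 fits that left out a library, at adjusted p up to 0.0691 for *Cbs* (without g*Spns1*-cKO 2, also lost without control 1 or 2) and 0.0824 for *Ahcy* (without control 3, also lost without control 2 or g*Spns1*-cKO 3).

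*Gnmt* uses S-adenosylmethionine to methylate glycine and so disposes of surplus methyl groups as sarcosine. It had 64916, 64641 and 55740 counts in controls and 38276, 40190 and 36727 in g*Spns1*-cKO livers. This was 2204 ± 105 CPM (SD, n = 3) against 1015 ± 70.6 CPM, a log2 fold change of -1.12 (SE 0.146, edgeR adjusted p = 0.000268). The groups stood apart on raw counts too, and the gene was lower also with library size alone (-0.67, adjusted p = 0.00278) and hepatocyte marker scaling (-0.53, adjusted p = 0.0141).

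*Mat1a*, which makes the S-adenosylmethionine that *Gnmt* consumes, was not called lower. It had 67667, 85140 and 76407 counts in controls and 100029, 157551 and 127291 in g*Spns1*-cKO livers (log2 fold change 0.31, SE 0.186, adjusted p = 0.213) under TMM, and the log2 fold change was 0.75 (adjusted p = 0.00633) with library size alone. The ratio of *Mat1a* to *Gnmt* per length, which no scaling touches, was 0.362, 0.458 and 0.477 in controls and 0.909, 1.36 and 1.21 in g*Spns1*-cKO livers (two-sided exact permutation p = 0.1, the smallest possible). This pair was chosen after its values were seen.

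*Bhmt*, which remethylates homocysteine with betaine, had the largest value of the set and the largest error. Its counts were 66078, 41630 and 63768 in controls and 38404, 12967 and 12405 in g*Spns1*-cKO livers (log2 fold change -1.85, SE 0.588, adjusted p = 0.0538). Liver g*Spns1*-cKO 1 held about the count of control 2, and without it the value was -2.67 (adjusted p = 0.000115). On the CPM scale the groups stood apart, at 1068, 338 and 316 CPM against 2350, 1352 and 2520 CPM. Its relative *Bhmt2*, which remethylates homocysteine from another donor, gained on it. The ratio per length was 0.239, 0.400 and 0.220 in controls and 0.505, 1.75 and 1.45 in g*Spns1*-cKO livers (two-sided exact permutation p = 0.1, the smallest possible). This pair, too, was chosen with results of these data known.

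**Figure D4:**
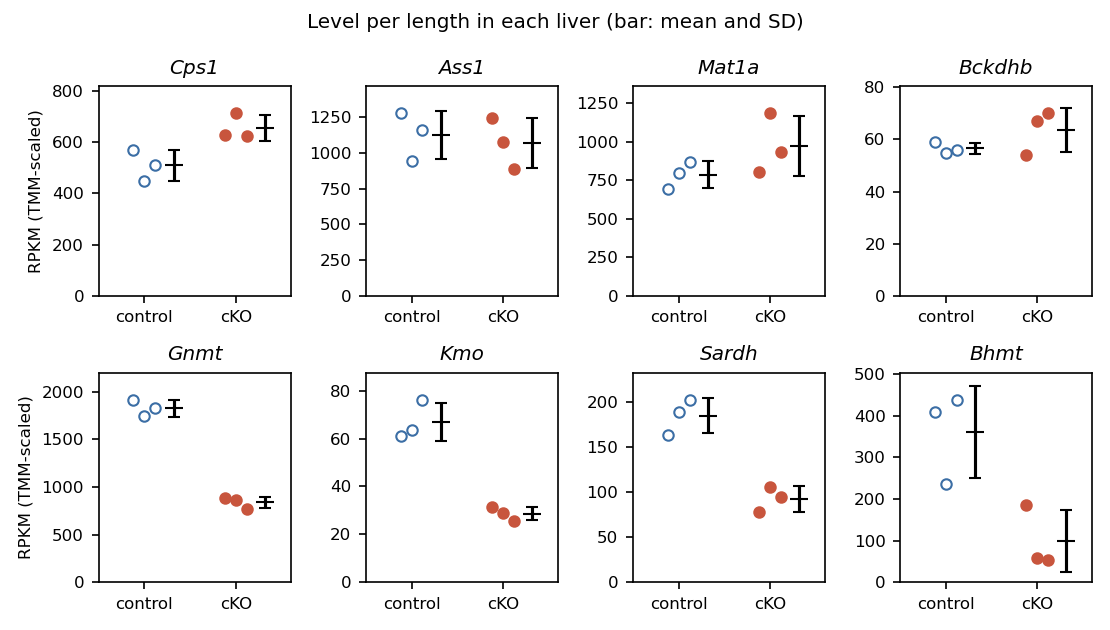
Level per length of 8 genes in each liver, as RPKM from TMM-scaled counts (vertical axes, from 0), with the mean and SD of 3 livers beside the points. *Gnmt*, *Kmo* and *Sardh* separate widely, *Ass1* and *Bckdhb* overlap, *Cps1* lies higher in g*Spns1*-cKO livers, and *Bhmt* in g*Spns1*-cKO 1 lies apart from the other 2 livers of its group.

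Sarcosine and dimethylglycine oxidation is the mitochondrial route that takes the products of *Gnmt* and *Bhmt* onward. Of its genes 2 of 2 were called lower under TMM, beside 39.9% of the abundant genes. The summed level was 1423 to 1620 CPM in controls and 675 to 879 CPM in g*Spns1*-cKO livers. *Sardh*, sarcosine dehydrogenase, had 25042, 31571 and 27848 counts in controls and 15186, 22076 and 20234 in g*Spns1*-cKO livers, or 1005 ± 106 CPM (SD, n = 3) against 504 ± 77.2 CPM, a log2 fold change of -0.996 (SE 0.163, edgeR adjusted p = 0.000954). Its groups did not overlap on raw counts either, and it was lower with library size alone (-0.55, adjusted p = 0.0145) and hepatocyte marker scaling (-0.40, adjusted p = 0.0375). *Dmgdh*, dimethylglycine dehydrogenase, had a log2 fold change of -0.78 (adjusted p = 0.00200), which was -0.34 (adjusted p = 0.0673) with library size alone.

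Of the serine, alanine, aspartate and glyoxylate genes 2 of 4 were called lower, *Agxt* and *Sds* (-0.60 both), and the median log2 fold change was -0.35. *Agxt*, the peroxisomal transaminase that detoxifies glyoxylate, had 8622, 8341 and 7967 counts in controls and 6714, 8988 and 6588 in g*Spns1*-cKO livers, or 297 ± 23.4 CPM (SD, n = 3) against 196 ± 34.3 CPM, a log2 fold change of -0.60 (SE 0.148, edgeR adjusted p = 0.00858). *Sds*, serine dehydratase, lost its call in 4 of the 6 fits that left out a library, those without control 1 or 3 or g*Spns1*-cKO 2 or 3 (adjusted p up to 0.101). It also shares 360 exon bases on the other strand with *Plbd2* (22420 and 22594 counts in all libraries).

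The cytosolic transaminases of alanine and aspartate were not called. *Got1* had 9633, 10184 and 7278 counts in controls and 14416, 16898 and 10250 in g*Spns1*-cKO livers (log2 fold change 0.20, SE 0.188, adjusted p = 0.428) under TMM, and the log2 fold change was 0.64 (adjusted p = 0.0178) with library size alone. *Gpt* had 10324, 12030 and 10500 counts against 10361, 17223 and 13787 (log2 fold change -0.11, SE 0.167, adjusted p = 0.632), and its value turned to 0.34 with library size alone. Both overlapped between groups on the CPM scale.

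Of the glutamine and proline genes 3 of 4 were called lower under TMM, beside 39.9% of the abundant genes. These were *Gls2*, *Prodh2* (-0.54) and *Aldh4a1* (-0.51), and the median of the 4 was -0.52. *Gls2*, the liver glutaminase that releases ammonia in the mitochondrion, had 10675, 11643 and 10249 counts in controls and 8402, 10010 and 9011 in g*Spns1*-cKO livers, or 388 ± 15.1 CPM (SD, n = 3) against 241 ± 17.2 CPM, a log2 fold change of -0.68 (SE 0.122, edgeR adjusted p = 0.00159). *Prodh*, proline dehydrogenase, had 9677, 9108 and 7701 counts in controls and 9841, 11243 and 11071 in g*Spns1*-cKO livers (log2 fold change -0.15, SE 0.123, adjusted p = 0.337). *Prodh2* oxidizes hydroxyproline and *Aldh4a1* acts after both dehydrogenases. With library size alone no gene of the pathway was called, and the median was -0.08. With hepatocyte marker scaling the median was 0.06, and *Prodh* was called higher.

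The branched chain genes were split within a single complex. *Bckdha* (-0.66), *Bckdhb* and *Dbt* encode subunits of the branched chain keto acid dehydrogenase, and *Ivd* acts later, on leucine carbon. *Ivd* had 6819, 7331 and 6958 counts in controls and 3560, 6649 and 5417 in g*Spns1*-cKO livers, or 252 ± 20.1 CPM (SD, n = 3) against 137 ± 37.2 CPM, a log2 fold change of -0.88 (SE 0.186, edgeR adjusted p = 0.00434). *Bckdhb* had 2987, 3039 and 2558 counts in controls and 3495, 4640 and 4963 in g*Spns1*-cKO livers (log2 fold change 0.17, SE 0.122, adjusted p = 0.290) under TMM, and the log2 fold change was 0.61 (adjusted p = 0.00214) with library size alone. Its groups overlapped after scaling but not on raw counts.

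*Dbt* had 2742, 2567 and 2687 counts in controls and 1826, 3625 and 2559 in g*Spns1*-cKO livers (log2 fold change -0.45, SE 0.214, adjusted p = 0.128). On the CPM scale g*Spns1*-cKO 2 (94.5) lay within the control range (83.4 to 106), and without it the value was -0.72 (adjusted p = 0.00436).

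The order of levels between genes was largely kept. As RPKM, counts per kilobase of the deposited gene length, control and g*Spns1*-cKO means over the 42 genes had a Spearman rho of 0.965, a description across genes measured in the same libraries. *Gnmt* led in controls at 1827 ± 87.0 RPKM (SD, n = 3), above *Ass1* (1128 ± 169), *Hpd* (1099 ± 74.5) and *Tat* (1028 ± 107), which did not differ beyond their spread. In g*Spns1*-cKO livers *Ass1* (1071 ± 176), *Mat1a* (973 ± 194), *Gnmt* (842 ± 58.5) and *Hpd* (780 ± 174) followed each other within their spread. *Afmid* was lowest in both groups (7.68 ± 0.525 and 8.31 ± 3.22 RPKM). The log2 fold change was hardly related to the control level (Spearman rho -0.105 across the 42 genes), nor did it follow the compartment of the enzyme, with medians of -0.55 in the cytosol (13 of 25 called lower) and -0.57 in the mitochondrion (11 of 16).

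**Figure D5:**
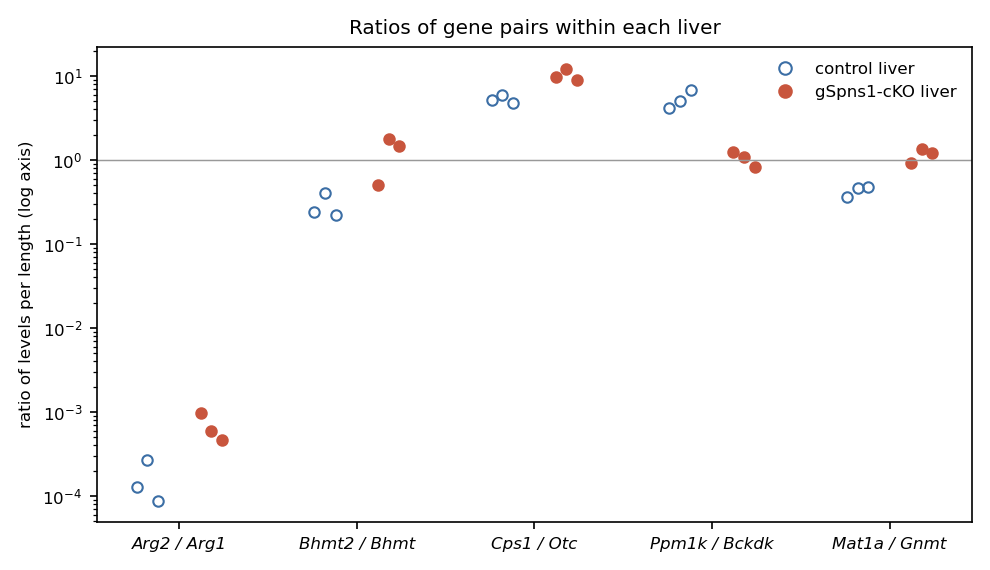
Ratio of levels per length of 5 pairs of genes in each liver (vertical axis, log scale); open circles are control and filled circles g*Spns1*-cKO livers. In each pair the groups do not overlap, and *Mat1a* over *Gnmt* moves from a mean of 0.432 to 1.16. The pairs were chosen with results of these data known. *Arg2*, paired with *Arg1*, had only 4, 7 and 2 counts in controls.

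Many further enzymes and carriers of the same pathways were also lower under TMM. Of 77 such genes 73 were tested. Under TMM 41 of these were called lower (56.2%) and 4 higher (5.48%), beside 20.5% and 21.3% of all genes tested. Of genes with at least 28.3 CPM, a level that many of them reach, 39.9% were called lower. The median of the 73 was -0.47 on the log2 scale. With library size alone, 16 were called lower (21.9%) and 18 higher (24.7%), beside 6.28% and 47.2% of all genes. The most reduced with at least 10 CPM in a group were *Ppm1k*, the phosphatase that activates the branched chain keto acid dehydrogenase (log2 fold change -2.11, SE 0.175, adjusted p = 3.08e-05), *Kyat1* (-1.78), *Csad* (-1.42) and *Car5a*, the mitochondrial carbonic anhydrase that supplies bicarbonate to *Cps1* (-1.36). *Ppm1k*, *Kyat1* and *Car5a* were lower under all 3 scalings of the plot by scaling. By pathway 12 of 17 further branched chain genes were called lower, 9 of 14 for serine, glycine and glyoxylate, and 4 of 6 for tryptophan. For phenylalanine and tyrosine it was 3 of 4, for lysine 3 of 6, and for histidine and folate 2 of 4. For the urea cycle and ammonia it was 3 of 7 with 2 higher, and for methionine and cysteine 5 of 15 with 1 higher. The serine, glycine and glyoxylate genes had 1 called higher.

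Among those called higher with at least 10 CPM in a group was *Gldc*, the glycine decarboxylase of the glycine cleavage system (63.4 to 98.6 CPM, log2 fold change 0.64, SE 0.136, adjusted p = 0.00418), which was also higher with library size alone (1.08, adjusted p = 0.000107). The ratio of *Ppm1k* to *Bckdk*, the kinase that opposes it, was 4.14, 4.96 and 6.84 in controls and 1.25, 1.09 and 0.825 in g*Spns1*-cKO livers (two-sided exact permutation p = 0.1, the smallest possible). This pair was chosen with results of these data known, so its separation is no independent test.

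Among 10 regulators of amino acid catabolism 5 were called lower and 1 higher under TMM, beside 20.5% and 21.3% of all genes tested. With library size alone 3 were called lower and 3 higher, beside 6.28% and 47.2% of all genes. Hepatocyte marker scaling also gave 3 lower and 3 higher, beside 4.12% and 55.6%. The liver factors *Cebpa* (538 ± 54.0 to 203 ± 47.5 CPM, log2 fold change -1.41, SE 0.177, adjusted p = 0.000213), *Creb3l3* (-1.35) and *Cebpb* (-1.25) were also lower with library size alone (-0.96, -0.90 and -0.81) and with hepatocyte marker scaling (-0.80, -0.75 and -0.64). *Klf15* (-0.73), which induces amino acid degrading enzymes in fasting, and *Gcgr* (-0.64), the glucagon receptor, were called lower under TMM and not with library size alone. *Ppargc1a* was called higher (1.30, SE 0.280, adjusted p = 0.00822). *Hnf4a* (-0.42, adjusted p = 0.0666), *Foxo1* (-0.52, adjusted p = 0.0524), *Nr3c1*, the glucocorticoid receptor (0.11, adjusted p = 0.404), and *Atf4* (0.04, adjusted p = 0.799) were not called under TMM. *Nr3c1* and *Atf4* were called higher with library size alone (0.55, adjusted p = 0.000948, and 0.48, adjusted p = 0.00844) and with hepatocyte marker scaling (0.70 and 0.63). Many other genes were called higher under both of these scalings.

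Promoters were read for motifs of such factors because many of the genes moved together. RefSeq sequences of GRCm38.p6 covered 32 of the 42 genes, and 250 bases before the start site were searched on both strands. The C/EBP letters TTGCNNAA occurred in 3 of 32 windows (9.38%) against 9.2% of 20480 promoters, the TATA box TATAAA in 4 (12.5% against 12.2%), the CRE core TGACG in 3 (9.38% against 19.5%), the glucocorticoid element letters AGAACA in 3 (9.38% against 14.7%) and the C/EBP-ATF letters TGATGNAA in 1 (3.12% against 3.29%). The CRE TGACGTCA, which contains the core, and the HNF4 letters CAAAGTCCA occurred in 0 (1.91% and 0.381% of all promoters). In 21 of the 32 windows no motif was found, among them those of the 3 genes lower under every scaling. A match is a description of letters and not a site. Not matched were *Cps1*, *Asl*, *Arg1*, *Kynu*, *Mat1a*, *Cth*, *Sds*, *Gpt*, *Gls2* and *Dbt*.

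The windows of the 3 genes lower under all scalings are shown first, and then those of *Hal* and *Hgd*, which hold both a C/EBP match and a TATA match, in capitals. Positions are *Kmo* chr1:175631943-175632192 (plus strand), *Gnmt* chr17:46729166-46729415 (minus), *Sardh* chr2:27247304-27247553 (minus), *Hal* chr10:93488518-93488767 (plus) and *Hgd* chr16:37579903-37580152 (plus), all GRCm38.p6. The *Hal* and *Hgd* windows end at the base before the deposited gene starts, whereas those of *Kmo* and *Sardh* lie inside the deposited extent of the gene (1:175620381-175662116 and 2:27188393-27248337), before a RefSeq start site.
Kmo: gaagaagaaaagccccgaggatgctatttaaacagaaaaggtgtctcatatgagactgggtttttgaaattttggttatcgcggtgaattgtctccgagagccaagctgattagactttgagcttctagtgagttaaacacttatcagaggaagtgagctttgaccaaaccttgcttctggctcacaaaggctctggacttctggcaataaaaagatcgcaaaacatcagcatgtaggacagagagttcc
Gnmt: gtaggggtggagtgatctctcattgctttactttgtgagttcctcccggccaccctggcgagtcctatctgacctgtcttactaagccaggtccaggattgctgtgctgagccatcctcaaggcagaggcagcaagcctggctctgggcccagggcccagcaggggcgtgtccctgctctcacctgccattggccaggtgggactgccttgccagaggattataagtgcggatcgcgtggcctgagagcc
Sardh: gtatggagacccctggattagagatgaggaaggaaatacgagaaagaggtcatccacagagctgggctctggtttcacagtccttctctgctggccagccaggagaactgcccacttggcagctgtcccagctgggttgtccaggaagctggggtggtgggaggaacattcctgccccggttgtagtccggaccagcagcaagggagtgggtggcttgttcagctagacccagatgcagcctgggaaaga
Hal: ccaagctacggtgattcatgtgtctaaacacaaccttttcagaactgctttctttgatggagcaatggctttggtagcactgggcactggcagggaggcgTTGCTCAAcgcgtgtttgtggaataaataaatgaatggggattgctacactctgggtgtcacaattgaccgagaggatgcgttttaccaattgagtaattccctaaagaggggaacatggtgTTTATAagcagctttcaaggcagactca
Hgd: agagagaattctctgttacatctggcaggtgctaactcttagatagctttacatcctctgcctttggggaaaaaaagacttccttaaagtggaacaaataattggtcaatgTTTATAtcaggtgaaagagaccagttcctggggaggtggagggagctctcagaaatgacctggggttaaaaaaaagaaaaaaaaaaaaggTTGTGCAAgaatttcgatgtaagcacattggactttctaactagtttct
In *Hal* the C/EBP match begins 150 bases and the TATA match 28 bases before the start site, and in *Hgd* 49 and 139 bases before it. Both TATA matches read TTTATA on the strand of the gene, so the letters TATAAA stand on the opposite strand.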

How the data were processed

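The authors deposited 1 table for the 6 livers. The deposited counts per gene are whole numbers with a different total in each library, made by the authors' sequencing service from poly-A libraries, 1 per mouse; the submitters' processing notes name fastp, HISAT2 2.0.5, featureCounts 1.5.0-p3 and mm10, and the strand setting is not given in the sources used here. The FPKM values that the authors deposited, and their own fold changes, p-values and adjusted p-values, were not used. All per-sample columns could be assigned from the labels. Of 54532 genes, 26590 had a count.

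Counts were tested in R 4.3.3 with edgeR 4.0.16 (TMM scaling, filterByExpr by genotype, robust quasi-likelihood test, no covariate) and Benjamini-Hochberg adjustment over all 15449 genes tested; called means an adjusted p under 0.05. The standard error is the log2 fold change over the root of the F statistic. CPM and RPKM use TMM-scaled libraries and the deposited gene lengths. The smallest p that an exact two-sided permutation test can give here is 0.1. The p-values measure the spread between these mice, and precision at this depth covers counting error only, because reads carry no molecular identifiers. No pair of libraries agreed within counting noise, so each counts as 1 replicate. The test was checked on simulated data. Sequences were read with Python 3.11.15.

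The 42 genes, the pathway, compartment, marker, regulator and motif lists and the gene pairs were chosen with earlier results of these data known. Counts and full statistics are given for the called gene of each pathway with the largest change and for every gene not called, and for other genes the log2 fold change. Of the further genes, up to 4 in each direction with at least 10 CPM in a group are named; a few of these are not reported here.

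The alternatives were the size factors of DESeq2, library size alone, upper-quartile and hepatocyte marker scaling, DESeq2 1.42.0, limma-voom (limma 3.58.1), 2 other filters on low counts (1 count in any library, 10 in every library), an adjusted p under 0.01, a limit of 2-fold, a replicate block and leaving out each liver in turn. Scaling to the geometric mean of the 42 genes was added after seeing the data.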

Additional observations from a re-analysis of the deposited data

How the results depend on the processing

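Scaling decided the direction of many of these values, while tool, filter and single libraries moved them less. Genes called lower among the 42 were 25 as reported, 24 to 29 with DESeq2, limma-voom or another filter, 5 with library size alone, 3 with hepatocyte marker scaling, 3 with scaling to the 42 genes themselves (chosen after seeing the data) and 3 with a limit of 2-fold. Genes called higher were 0 as reported by edgeR, 0 with limma-voom, 1 with DESeq2 (*Cps1*), 1 with upper-quartile scaling (*Cps1*), 4 with library size alone, and 8 each with hepatocyte marker scaling and with scaling to the 42 genes. The median log2 fold change was -0.13 with library size alone, 0.0205 with hepatocyte marker scaling and -0.0101 with scaling to the 42 genes. The last of these is held near no change by construction. Of all genes, 6452 were called as reported, 3890 at an adjusted p under 0.01 and 2769 with a limit of 2-fold. Of the further amino acid genes, 16 were called lower with library size alone, 9 with hepatocyte marker scaling and 10 with a limit of 2-fold, and 18, 22 and 2 higher.

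Signs turned positive with hepatocyte marker scaling in *Ass1* (0.51), *Asl* (0.43), *Arg1* (0.39), *Slc25a15* (0.35), *Slc25a13* (0.092), *Tat* (0.035), *Hpd* (0.086), *Kynu* (0.089), *Uroc1* (0.16), *Amdhd1* (0.27), *Ftcd* (0.21), *Sds* (0.0060), *Gpt* (0.47), *Prodh* (0.43), *Prodh2* (0.050), *Aldh4a1* (0.071) and *Dbt* (0.13). With library size alone they turned in *Ass1* (0.37), *Asl* (0.30), *Arg1* (0.26), *Slc25a15* (0.19), *Uroc1* (0.022), *Amdhd1* (0.13), *Ftcd* (0.076), *Gpt* (0.34), *Prodh* (0.29) and *Dbt* (0.0006). With scaling to the 42 genes they turned in *Ass1* (0.49), *Asl* (0.40), *Arg1* (0.37), *Slc25a15* (0.31), *Slc25a13* (0.060), *Tat* (0.0062), *Hpd* (0.058), *Kynu* (0.067), *Uroc1* (0.14), *Amdhd1* (0.24), *Ftcd* (0.18), *Gpt* (0.44), *Prodh* (0.41), *Prodh2* (0.026), *Aldh4a1* (0.048) and *Dbt* (0.100). Upper-quartile scaling turned *Ass1* (0.054) and *Gpt* (0.026). That some signs turn with scaling to the 42 genes follows from its construction and is no separate result.

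Leaving out each liver in turn gave 19 to 27 genes of the 42 called lower, 0 to 1 higher, a median of -0.64 to -0.51, 4490 to 6429 genes called in all (lowest without g*Spns1*-cKO 3), and 30 to 40 further genes lower and 3 to 4 higher. The gene called higher was *Afmid*, without g*Spns1*-cKO 1. Of the 25 called genes 18 were called in each of the 6 fits, and 7 lost the call in at least 1 (*Otc*, *Slc25a13*, *Tat*, *Uroc1*, *Ahcy*, *Cbs*, *Sds*). The sign turned in *Ass1* (range -0.20 to 0.042) without control 1 or g*Spns1*-cKO 3, in *Asl* (-0.37 to 0.021) and *Gpt* (-0.29 to 0.030) without g*Spns1*-cKO 1, and in *Afmid* (-0.18 to 0.38) without g*Spns1*-cKO 2.

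Animals of the 2 groups share replicate numbers in the labels, but deviations of same-numbered livers from their group means correlated at 0.0469, 0.0334 and -0.0225 over the genes tested, so the numbers were not taken as pairs, nor did every liver correlate best with its own number. A fit with the replicate block called 6100 genes and 26 of the 42 lower and 0 higher, with a median of -0.58; *Kynu* (-0.57, adjusted p = 0.0163) and *Bhmt* (-2.04, adjusted p = 0.00748) were called in it and *Uroc1* was not (adjusted p = 0.0603). The filter of at least 10 counts in every library also lost *Uroc1*. The smallest count of any of the 42 genes in a library was 629 (*Afmid*), so counting error was small beside the spread between livers.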
